A study of Homo sapiens with 8 samples.

Results

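The 78 genes described here encode the MRPL and MRPS proteins of the mitochondrial ribosome. They are the protein-coding genes of a deposited table of 58787 genes whose symbol is MRPL or MRPS followed by a number and, for 1 family, a letter from A to C. RNA was sequenced from IMR32 cells, an established human neuroblastoma cell line with amplified MYCN, labelled as a wild-type neuroblast. Cells were exposed for 6 h either to CR31B at its IC50, a dose given without a concentration, or to the vehicle, 0.1% DMSO. CR31B is a rocaglate, a class of compound that inhibits the RNA helicase eIF4A, which unwinds mRNA leaders at the start of cytosolic translation. There were 4 libraries per treatment, numbered 1 to 4, all from this 1 line. The labels do not say whether these came from separate cultures, so the p-values measure the spread between libraries.

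The mitochondrial ribosome translates the few mRNAs of the mitochondrial genome, all of which encode membrane subunits of the respiratory chain and ATP synthase. Its ribosomal RNAs come from the mitochondrial genome, whereas its proteins are encoded in the nucleus, made on cytosolic ribosomes and imported. The large subunit forms the peptide bond and holds the exit tunnel, and the small subunit binds and decodes the mRNA. Many of its proteins have a counterpart in the bacterial ribosome, and others are found only in mitochondria. Genes of both the cytosolic and the mitochondrial ribosome are known targets of the MYC family.

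By place in the ribosome, 51 of the genes encode large subunit proteins, 31 of them with a bacterial counterpart and 20 specific to mitochondria. Another 26 encode small subunit proteins, 17 with a bacterial counterpart and 9 specific to mitochondria. The 3 MRPS18 paralogs were all classed with their bacterial family, although structural naming treats MRPS18A and MRPS18B as specific to mitochondria. Some symbols mislead. MRPS18A and MRPS30 belong to the large subunit and were counted there, and MRPS36 is a subunit of the 2-oxoglutarate dehydrogenase complex and was kept apart.

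Sequencing was paired-end for the 2 replicate 1 libraries and single-end for the remaining 6. Totals ran from 43687828 to 64715535 counts per library. Levels are given as CPM, TMM-normalised counts scaled to a common library total. The first principal component of log2 CPM carried 51.8% of the variance and put CR31B replicate 1 with DMSO replicates 2 to 4, and DMSO replicate 1 with CR31B replicates 2 to 4. The replicate 1 libraries therefore go against their labels in direction. Whether the labels of these 2 libraries were exchanged was not tested, and values from all 8 libraries hold only under the labels as given. The comparisons are given with them and without them, and no label was changed. The 10 neuroblast markers examined, HAND2 and GATA3 among them, were above 1 CPM in every library, summing to 2717 to 3711 with DMSO and 2698 to 3914 with CR31B. Of the markers of other cell types, those of leukocytes summed to at most 0.886 those of epithelia to at most 0.234, those of endothelium to at most 2.61 and those of glia to at most 8.32 CPM, and fibroblast markers to 17.4 to 32.3 CPM. CD3E, CD68, KRT5, SOX10 and GFAP were at 0 in all 8 libraries.

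The genes lie on 21 chromosomes and were chosen by symbol alone, so their promoter sequences are independent of the choice. RefSeq promoters (GRCh38.p14, 250 bases before to 50 bases after a start) matched 69 of the 78 genes. Motifs of 4 factors known from nuclear-encoded mitochondrial genes were searched on both strands: GCGCNTGCG for NRF1, CCGGAAG for the ETS family that includes GABPA, AAGATGGCG for YY1 and CACGTG for the E-box of MYC. An ETS match can run into a YY1 match through the shared letters AAG, and such a promoter counts for both. The promoters of the most strongly lower gene (MRPL52), of an abundant lower gene (MRPL51) and of the only 2 genes called higher (MRPL16 and MRPL30) are printed 5′ to 3′ on the coding strand, with matches on either strand in capitals.
MRPL52, chr14:22829637-22829936, plus strand: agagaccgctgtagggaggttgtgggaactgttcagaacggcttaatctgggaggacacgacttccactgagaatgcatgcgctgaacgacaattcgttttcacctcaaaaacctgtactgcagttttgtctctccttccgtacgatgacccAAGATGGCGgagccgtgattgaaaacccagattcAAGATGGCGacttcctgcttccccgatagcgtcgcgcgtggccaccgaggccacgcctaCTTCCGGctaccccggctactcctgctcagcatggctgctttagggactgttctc
MRPL51, chr12:6493213-6493512, minus strand: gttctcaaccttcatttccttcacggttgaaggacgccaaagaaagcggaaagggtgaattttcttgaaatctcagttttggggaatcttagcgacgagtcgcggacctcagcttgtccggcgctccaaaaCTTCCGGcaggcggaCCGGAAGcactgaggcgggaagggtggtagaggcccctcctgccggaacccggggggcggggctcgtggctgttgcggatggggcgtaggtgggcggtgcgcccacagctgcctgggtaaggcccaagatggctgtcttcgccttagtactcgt
MRPL16, chr11:59810729-59811028, minus strand: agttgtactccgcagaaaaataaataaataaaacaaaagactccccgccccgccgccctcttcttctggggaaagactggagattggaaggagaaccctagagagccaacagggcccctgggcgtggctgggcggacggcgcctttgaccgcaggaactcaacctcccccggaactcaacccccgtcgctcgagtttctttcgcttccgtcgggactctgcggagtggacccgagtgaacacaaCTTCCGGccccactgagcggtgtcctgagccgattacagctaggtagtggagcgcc
MRPL30, chr2:99180934-99181233, plus strand: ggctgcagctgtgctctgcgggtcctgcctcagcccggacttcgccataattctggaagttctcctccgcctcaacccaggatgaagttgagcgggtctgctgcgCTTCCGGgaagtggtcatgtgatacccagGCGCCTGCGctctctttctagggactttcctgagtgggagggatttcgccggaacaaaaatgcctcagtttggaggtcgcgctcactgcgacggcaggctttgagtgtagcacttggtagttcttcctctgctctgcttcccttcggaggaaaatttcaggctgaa

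The MRPL52 promoter held 2 YY1 matches and 1 ETS match, read as CTTCCGG on the printed strand. That of MRPL51 held 2 ETS matches on opposite strands, that of MRPL16 held 1, and that of MRPL30 held 1 ETS and 1 NRF1 match. An ETS match was present in 30 of the 69 genes (43.5%), against 16.7% of 14896 protein-coding genes with a promoter in the table and 34.9% of 63 cytosolic ribosomal protein genes. A YY1 match was present in 13 genes (18.8%), against 3.32% of protein-coding genes and 7.94% of cytosolic ribosomal protein genes. NRF1 matches were found in 17.4% against 12.7%, and E-boxes in 13.0% against 11.02%, of mitochondrial ribosomal and all protein-coding genes. Median GC content was 60.3% over the members' promoters and 62.7% over all. A match is a description of these letters and not a site in use.

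Levels per length were compared as RPKM, that is CPM divided by the length in kilobases of the longest coding transcript. Mean RPKM was at least 10 in 70 of the 78 genes and between 10 and 100 in 67 of them. The median over the 77 genes tested in replicates 2 to 4 was 30.1 RPKM, against 8.80 over tested protein-coding genes and 242 over cytosolic ribosomal protein genes. The large and small subunit medians were 30.2 and 29.2 RPKM. The transcripts were short, with a median of 1532 bases against 3538 over tested protein-coding genes. At least 1000 counts were present in every library for 63 of the 78 genes.

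MRPL3, a protein at the base of the peptidyl transferase region, had the highest level per length, 151 RPKM on average with a range of 141 to 162 over the 8 libraries. MRPL51 followed at 116 RPKM (92.5 to 134) and MRPL37 at 107 RPKM (94.4 to 122). This order rests on the longest coding transcript: MRPL42, at 199 CPM, was given 15582 bases and so 12.8 RPKM. The range of MRPL3 lay above those of both, and the ranges of MRPL51 and MRPL37 overlapped. These ranges pool both treatments, and MRPL51 and MRPL37 were not compared within each library, so their order is not judged here.

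At the other end, 7 genes lay under 10 CPM, and each of them shares at least 53.0% of its coding bases with another gene annotated on the same strand. MRPL53, whose coding bases all lie in exons of CCDC142, was at 0 counts in 4 libraries and at most 0.0389 CPM in the other 4. MRPS24, with 92.2% of its coding bases shared with the read-through gene URGCP-MRPS24, had 0.227 RPKM, and MRPL38, with 94.1% shared, had 0.293 RPKM. MRPS28 (53.0% shared) had 0.314 RPKM, MRPL12 (96.0% shared) 1.69 RPKM, MRPL46 (64.0% shared) 1.36 RPKM and MRPS17 (100% shared) 4.17 RPKM. No gene under 10 CPM shared less than 50% of its coding bases, and of the 8 genes at or above that share only MRPL30 was above 10 CPM. How reads in shared exons were counted is not given in the sources used here, so these 7 levels, and any difference in them, are uncertain. CCDC142 itself had 16.2 to 25.03 CPM, and URGCP-MRPS24 had 0 counts in all 8 libraries.

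**Figure D1:**
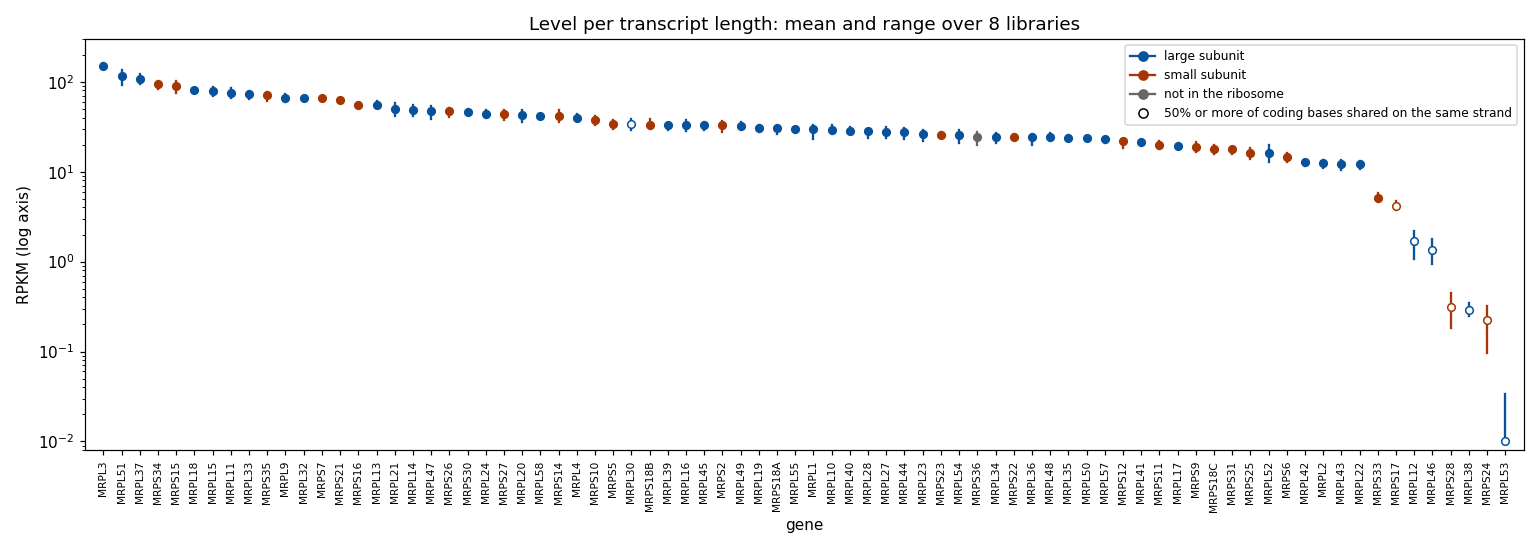
RPKM (log axis) of each of the 78 genes, ordered by mean: points are means and lines the range over 8 libraries, with values of 0 drawn at 0.01. Apart from MRPL30, the genes drawn as open circles, which share 50% or more of their coding bases with another gene on the same strand, are the 7 lowest, from MRPS17 at 4.17 RPKM down to MRPL53.

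The question of the treatment comparison is which transcripts differed after 6 h of eIF4A inhibition. With all 8 libraries as labelled and sequencing layout as a covariate, no mitochondrial ribosomal protein gene was called. In edgeR's quasi-likelihood test 0 of 76 tested genes passed an adjusted p of 0.05, against 0 of 16518 over all genes tested (0%). That no gene passed does not show that none rose or fell. One gene, MRPL23, was under 0.05 before adjustment, as were 205 over all genes, and DESeq2 and limma voom also called 0. The median log2 fold change, CR31B over DMSO, was -0.11 over the 76 genes and 0.00432 over all tested genes. MRPL53 and MRPS24 did not pass the filter on low counts.

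MRPL23, whose bacterial counterpart lies at the exit of the peptide tunnel, read 24.6, 26.9, 26.5 and 24.9 CPM in DMSO replicates 1 to 4 and 23.5, 21.1, 20.1 and 23.5 CPM in CR31B replicates 1 to 4. All 4 CR31B libraries lay below all 4 DMSO libraries, with a log2 fold change of -0.22 ± 0.0865 (SE) and an adjusted p of 0.707 in edgeR's quasi-likelihood test. MRPL55, classed with the large subunit proteins that have a bacterial counterpart, was the other gene whose groups did not overlap, at 42.1, 43.2, 38.2 and 42.5 CPM with CR31B and 45.1, 44.1, 43.6 and 43.8 CPM with DMSO. These were 2 of 76 genes, and 109 of all 16518 tested genes were so separated.

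Within the single-end libraries, replicates 2 to 4, 39 mitochondrial ribosomal protein genes fell with CR31B and 2 rose. The test was edgeR's quasi-likelihood test without a term for the pair. In it 41 of the 77 genes tested passed an adjusted p of 0.05 (53.2%), against 6901 of 16696 over all genes (41.3%). The same 41 had adjusted p from 0.707 to 0.813 with all 8 libraries. The share that fell was 50.6% against 17.6% over all genes, and the share that rose was 2.60% against 23.8%. The falls were small: those called ran from -0.14 to -0.48 on the log2 scale, or 1.10-fold to 1.39-fold, and none passed 2-fold. The median over the 77 genes was -0.17, against -0.00698 over all tested genes, and 68 of the 77 values were negative. In a bulk library a lower level in each cell and fewer cells that express the gene cannot be told apart.

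The direction was the same in each of pairs 2, 3 and 4 for 60 of the 77 genes, 55 lower and 5 higher with CR31B. Over all tested genes the direction was shared in 69.8%, near the members' 77.9%, and was lower in 34.3% against the members' 71.4%. The 3 CR31B libraries lay wholly below the 3 DMSO libraries for 47 genes and wholly above for 4, while 26 overlapped. Such separation was seen in 52.1% of all tested genes. The median difference of the members was -0.14 in pair 2, -0.26 in pair 3 and -0.15 in pair 4, and 0.10 in pair 1. Of the 41 called genes, 40 had the opposite sign in pair 1, as did 98.9% of all called genes. The exception was MRPL23, at -0.0617 in pair 1.

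As a share of all counts, the 78 genes took 0.510%, 0.511% and 0.506% in DMSO replicates 2 to 4 and 0.447%, 0.434% and 0.433% in CR31B replicates 2 to 4. The replicate 1 libraries lay the other way round, at 0.442% with DMSO and 0.497% with CR31B. All 3 CR31B libraries of replicates 2 to 4 were below all 3 DMSO libraries, and with replicate 1 the groups overlapped.

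**Figure D2:**
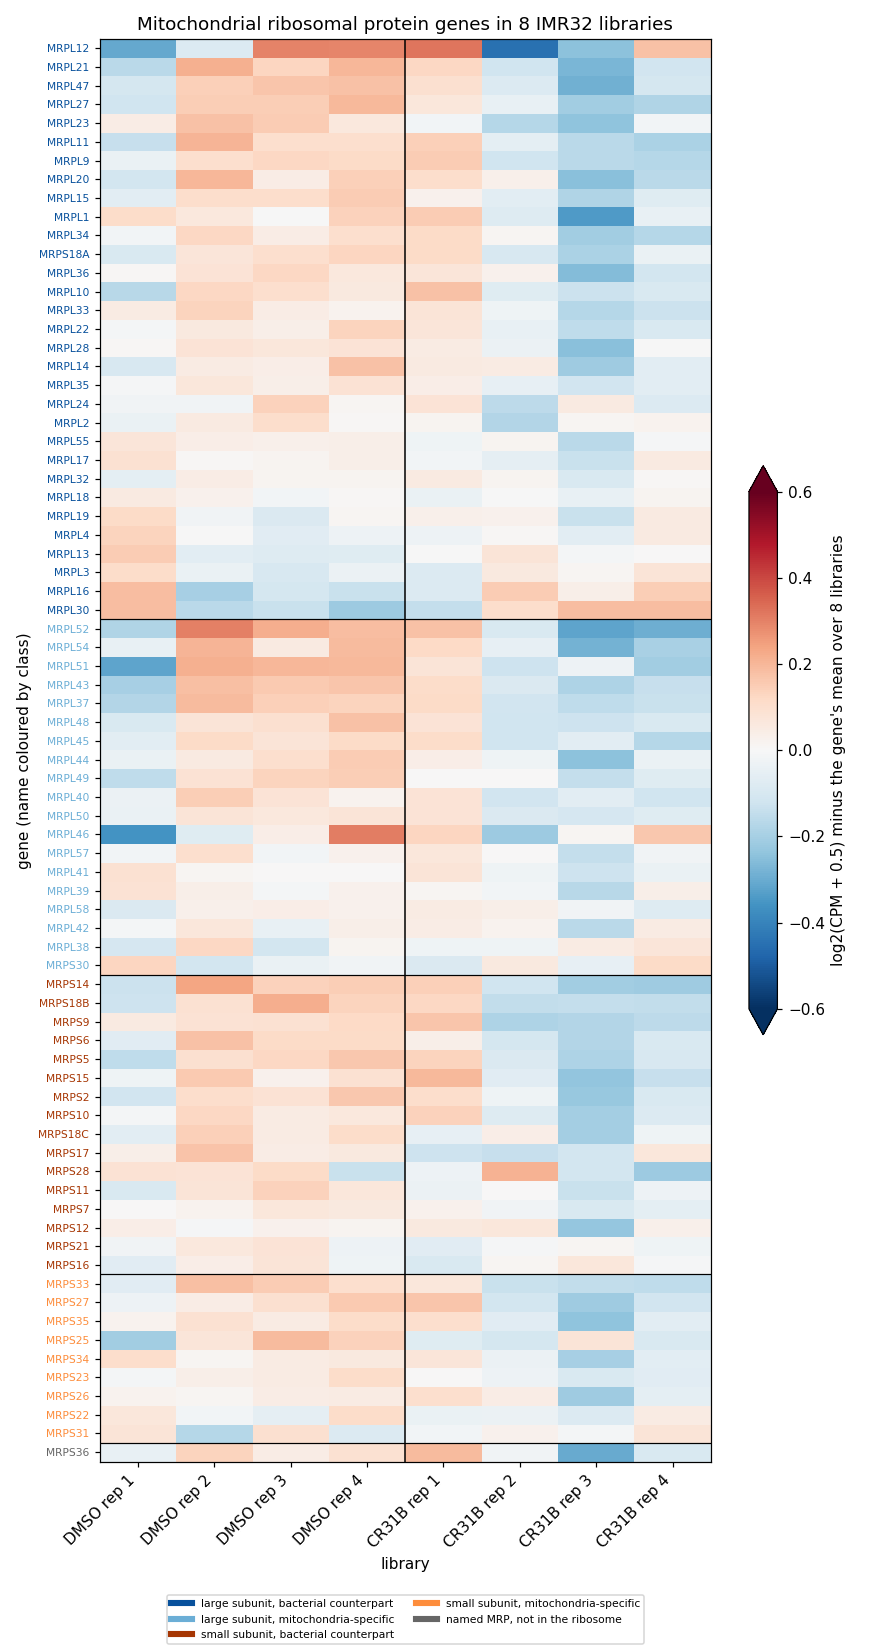
Each row is 1 of the 76 genes tested in all 8 libraries, grouped by class and ordered within it by log2 fold change; colour is log2(CPM + 0.5) minus the gene's own mean, for DMSO on the left and CR31B on the right. Most rows are red in DMSO replicates 2 to 4 and blue in CR31B replicates 2 to 4, and the replicate 1 columns show the reverse.

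The test of the treatment by layout interaction compares the difference in replicate 1 with that in replicates 2 to 4. It passed an adjusted p of 0.05 in edgeR's quasi-likelihood test for 33 of 76 genes (43.4%), against 7027 of 16518 over all genes (42.5%), a share near the background with this scaling. With upper quartile scaling it passed for 73.7% of the members against 47.0% of all genes, and with total counts for 71.1% against 45.7%. With 1 paired-end library per treatment, its error rests on the spread of the single-end ones.

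Among large subunit proteins in replicates 2 to 4, 25 of 50 tested genes fell and 2 rose in edgeR's quasi-likelihood test, with a median log2 fold change of -0.17 (-0.11 with all 8 libraries, 0 called). Over all genes 17.6% fell and 23.8% rose. MRPL52 (chr14:22829879-22835037, plus strand in GRCh38, GENCODE 29), a mitochondria-specific protein, read 22.1, 20.8 and 20.3 CPM in DMSO replicates 2 to 4 and 16.7, 14.2 and 14.4 CPM in CR31B replicates 2 to 4. Its replicate 1 libraries read 15.6 CPM in DMSO replicate 1 and 20.1 CPM in CR31B replicate 1. Its means were 21.0 ± 0.907 CPM with DMSO and 15.1 ± 1.37 CPM with CR31B (SD, n = 3), and its log2 fold change of -0.48 ± 0.0810 (SE), adjusted p = 9.67e-04, was the lowest of the called genes. Every CR31B library of replicates 2 to 4 lay below every DMSO library of those replicates, and replicate 1 lay the other way.

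MRPL21 (chr11:68891276-68903835, minus strand), with a counterpart in bacteria, read 54.0, 51.1 and 53.7 CPM in DMSO replicates 2 to 4 and 42.9, 38.5 and 43.0 CPM in CR31B replicates 2 to 4. The replicate 1 pair read 41.6 CPM in DMSO replicate 1 and 50.9 CPM in CR31B replicate 1, and the log2 fold change in replicates 2 to 4 was -0.35 ± 0.0603 (SE), adjusted p = 0.00104 (edgeR). MRPL51 (chr12:6491886-6493841, minus strand), mitochondria-specific and the second highest per length, read 165, 163 and 163 CPM in DMSO replicates 2 to 4 and 130.3, 139 and 123 CPM in CR31B replicates 2 to 4, a log2 fold change of -0.32 ± 0.0539 (SE), adjusted p = 9.17e-04 (edgeR). Its replicate 1 libraries read 114 CPM in DMSO replicate 1 and 150.0 CPM in CR31B replicate 1, so that DMSO replicate 1 was the lowest of the 8. Exons of NCAPD2 on the opposite strand cover 31.3% of the exonic bases of MRPL51. The name of the deposited counts carries the word reverse, and the strand setting of the counting is not otherwise given in the sources used here.

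Other large subunit genes among the lowest were MRPL54 at -0.33 (adjusted p = 0.0103), MRPL47 at -0.32 (adjusted p = 0.00181), MRPL27, whose bacterial counterpart reaches towards the peptidyl transferase centre, at -0.31 (adjusted p = 0.00144), and MRPL43 at -0.31 (adjusted p = 0.00193), all by edgeR. Adding offsets for GC content and length brought MRPL54 to -0.16 with an adjusted p of 0.140, which ends its call. MRPL43 shares 36.9% of its exonic bases with SEMA4G and TWNK on the opposite strand, and TWNK had a log2 fold change of 1.44 in the other direction. MRPL37, the third highest per length, fell by 0.29 on the log2 scale (adjusted p = 6.17e-04). MRPL11, part of the base of the stalk where translation factors bind, had a log2 fold change of -0.27 (adjusted p = 0.00273, edgeR).

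The 2 genes that rose were also large subunit genes with bacterial counterparts. MRPL30 (chr2:99181079-99197626, plus strand) read 78.0, 79.4 and 74.9 CPM in DMSO replicates 2 to 4 and 93.8, 99.2 and 99.2 CPM in CR31B replicates 2 to 4, and 99.1 CPM in DMSO replicate 1 and 78.8 CPM in CR31B replicate 1. Its means were 77.4 ± 2.30 CPM with DMSO and 97.4 ± 3.10 CPM with CR31B (SD, n = 3), with a log2 fold change of 0.33 ± 0.0495 (SE), adjusted p = 4.15e-04 (edgeR). All 3 CR31B libraries of replicates 2 to 4 lay above all 3 DMSO libraries, and replicate 1 lay the other way. MRPL30 shares 95.3% of its coding bases, and 19.5% of all its exonic bases, with the annotated genes AC079447.1 and AC092587.1, which were at most 0.178 and 0.0224 CPM, and its value is uncertain to that extent.

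MRPL16 (chr11:59806135-59810872, minus strand), whose bacterial counterpart helps to place the incoming tRNA, read 33.5, 35.8 and 35.1 CPM in DMSO replicates 2 to 4 and 42.9, 39.6 and 42.7 CPM in CR31B replicates 2 to 4, and 43.9 CPM in DMSO replicate 1 and 36.4 CPM in CR31B replicate 1. Its log2 fold change was 0.26 ± 0.0582 (SE), adjusted p = 0.00450 (edgeR), and no other gene's exons overlap its own. The groups of replicates 2 to 4 did not overlap here either.

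MRPL3 was higher in all 3 pairs 2 to 4, with a log2 fold change of 0.11 ± 0.0472 (SE), adjusted p = 0.0926 in edgeR's quasi-likelihood test, and did not pass the threshold. It passed in the fit with the replicate number as a block (adjusted p = 0.0281), with offsets for GC content and length (adjusted p = 0.0378) and with both (adjusted p = 0.00454). Among large subunit genes with no call, MRPS30 was at 0.10, MRPL19 at 0.0161 and MRPL18 at -0.0138. Without CR31B replicate 3 MRPS30 passed at 0.15 (adjusted p = 0.0435), and with offsets and replicate block at 0.164 (adjusted p = 0.0136). MRPL58, which frees peptides from stalled ribosomes, was at -0.0534, and MRPL41 at -0.0688. With upper quartile scaling, where the median of all genes was -0.102, MRPL41 passed at -0.165 (adjusted p = 0.0365). MRPL12, the stalk protein that recruits translation factors and has also been reported to bind the mitochondrial RNA polymerase, read 1.57, 2.19 and 2.18 CPM with DMSO and 1.11, 1.35 and 1.97 CPM with CR31B. The groups overlapped, and its log2 fold change of -0.43 ± 0.22 (SE), adjusted p = 0.149, did not pass in edgeR's quasi-likelihood test, although it passed with the replicate block (adjusted p = 0.0314) and, at -0.68, without CR31B replicate 4 (adjusted p = 0.0384).

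Among small subunit proteins 13 of 26 tested genes fell and 0 rose, against 17.6% and 23.8% over all genes, with a median log2 fold change of -0.17 (-0.12 with all 8 libraries, 0 called). MRPS14 (chr1:175010789-175023425, minus strand), which has a bacterial counterpart in the head of the subunit, read 104, 97.0 and 97.6 CPM in DMSO replicates 2 to 4 and 80.9, 76.0 and 75.9 CPM in CR31B replicates 2 to 4. Its means were 99.4 ± 3.70 CPM with DMSO and 77.6 ± 2.88 CPM with CR31B (SD, n = 3), and its log2 fold change of -0.36 ± 0.0517 (SE), adjusted p = 3.55e-04 (edgeR), was the lowest called in this subunit. The 3 pairs differed by -0.36, -0.35 and -0.36. The replicate 1 libraries read 80.5 CPM in DMSO replicate 1 and 97.3 CPM in CR31B replicate 1, the reverse order. MRPS16 was the gene with the smallest difference of all, -0.00589 with an SE of 0.0495, and MRPS12, a protein of the decoding centre, was at -0.0505 with an SE of 0.0810.

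The MRPS18 family has 3 members in mammals, related to 1 bacterial protein and set in different places in the ribosome. MRPS18B, in the small subunit, read 54.3, 59.3 and 55.9 CPM in DMSO replicates 2 to 4 and 45.9, 46.0 and 46.0 CPM in CR31B replicates 2 to 4, a log2 fold change of -0.30 ± 0.0526 (SE), adjusted p = 0.00126 (edgeR). MRPS18A, in the large subunit, fell by 0.21 on the log2 scale (adjusted p = 0.0177), and MRPS18C, in the small subunit, had -0.16 (adjusted p = 0.0949). With offsets for GC content and length MRPS18A came to -0.0656 (adjusted p = 0.473). MRPS18C passed with the replicate block (adjusted p = 0.0217), with block and offsets (0.0356) and without CR31B replicate 2 (0.0449). It also passed with upper quartile scaling (0.00943), total counts (0.0133) and a filter of at least 1 CPM in every library (0.0406). Without DMSO replicate 4 MRPS18A also lost its call (adjusted p = 0.0714). In all 3 paralogs each CR31B library of replicates 2 to 4 lay below each DMSO library. Exons on the opposite strand overlap 47.0% of MRPS18A, in RSPH9, and 40.2% of MRPS18C, in ABRAXAS1. No difference between the paralogs was tested.

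MRPS36, which carries the MRP symbol but serves the 2-oxoglutarate dehydrogenase complex, fell by 0.23 on the log2 scale (adjusted p = 0.0383). It lost the call when any 1 of 5 libraries was left out, CR31B replicate 3 or 4 or DMSO replicate 2, 3 or 4, with adjusted p from 0.0505 to 0.112, and also with offsets for GC content and length (adjusted p = 0.0538).

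**Figure D3:**
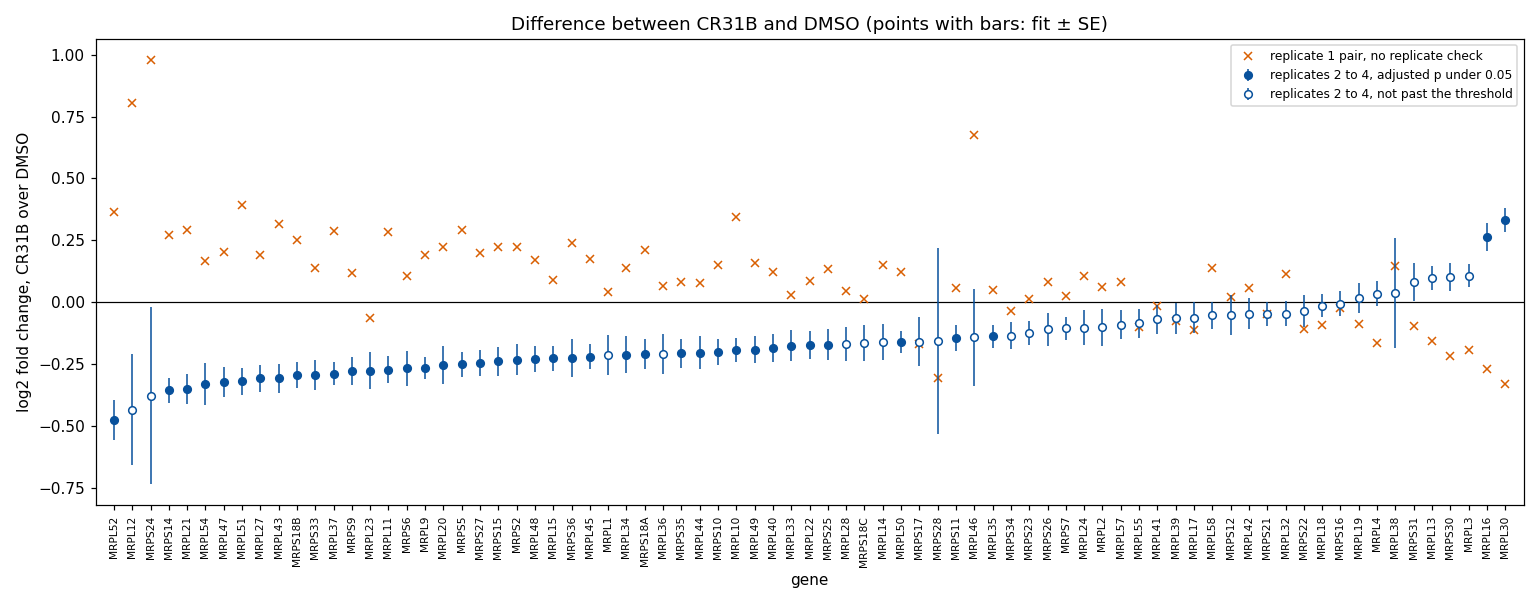
Log2 fold change, CR31B over DMSO, of the 77 genes tested in replicates 2 to 4 (circles with bars, fit ± SE; filled where the adjusted p was under 0.05) and the difference of the replicate 1 pair (crosses). Values run from -0.48 for MRPL52 to 0.33 for MRPL30, and the crosses of 40 of the 41 filled genes lie on the other side of 0.

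Genes with a bacterial counterpart and those specific to mitochondria were set side by side, without a test of the difference. Of the former 23 of 48 tested fell and 2 rose, with a median of -0.17, and of the latter 15 of 28 fell and 0 rose, also with a median of -0.17, where 17.6% of all genes fell and 23.8% rose. Over the members, log2 fold change had a Spearman correlation of 0.160 with transcript length and of -0.13 with transcript GC content across the 77 genes, which share libraries and are not replicates. Over all tested protein-coding genes the corresponding correlations were 0.282 and -0.19, also across genes of the same libraries. Motif matches were spread over both outcomes: an ETS match was found in 13 of 33 genes called lower with a promoter and in 14 of 33 not called, and a YY1 match in 6 and 7. Both genes that rose held an ETS match and neither a YY1 match.

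Because length and GC moved with the fold change over all genes, the fit of replicates 2 to 4 was repeated with offsets for both. Then 30 of the 77 genes were called in edgeR's quasi-likelihood test, 26 lower and 4 higher, 39.0% in all against 39.6% of all genes. The share lower was 33.8% against 19.6% of all genes. With offsets and the replicate block 35 of the 77 were lower and 6 higher, against 25.8% and 24.3% of all genes. Of the 41 genes called without offsets 26 were called with them, 24 lower and the same 2 higher. The median of the members was -0.12 with offsets and that of all genes -0.0271. The sign of the difference changed in 12 of the 77 genes. The offsets use the length of the longest coding transcript, and MRPL42, at 15582 bases, went from -0.047 to -0.33 (adjusted p = 0.00187, edgeR).

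**Figure D4:**
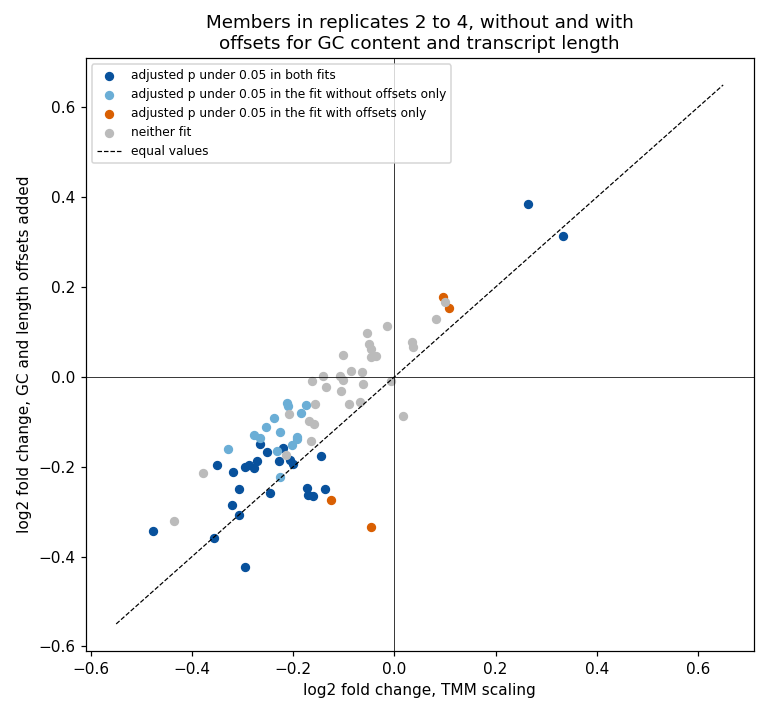
Each point is 1 of 77 genes: log2 fold change in replicates 2 to 4 with TMM scaling alone (horizontal) and with offsets for GC content and transcript length added (vertical), coloured by the fit in which its adjusted p was under 0.05. Most points lie above the dashed line of equal values, and MRPL52, MRPS14, MRPL16 and MRPL30 keep their call.

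Of the 41 genes, 19 were called under all 16 alternative settings and left-out libraries tried for replicates 2 to 4, 17 lower and 2 higher. Those that fell throughout included MRPL52, MRPS14, MRPL21, MRPL47, MRPL51, MRPL27, MRPL43, MRPL37, MRPL11 and MRPS18B. The same tally was not made over all genes, of which single settings called 24.8% to 53.7%. Whether called members kept their calls more often than other called genes is therefore not known. The settings also reuse the same libraries. Without DMSO replicate 4 only 27 genes were called, 25 of them lower, against 33.9% of all genes.

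The mitochondrial ribosome also holds proteins that do not carry an MRP symbol, and 5 of them were listed. In replicates 2 to 4, 1 of the 5 passed edgeR's quasi-likelihood test (20%, against 41.3% of all genes). DAP3, a GTP-binding protein of the small subunit, fell by 0.14 on the log2 scale (adjusted p = 0.0387). That call was lost under leave-one-out for 5 of the 6 libraries, all but CR31B replicate 3, with adjusted p from 0.0643 to 0.142, with the offsets (adjusted p = 0.112) and with no filter on low counts (adjusted p = 0.0557). CHCHD1 was at -0.15 (adjusted p = 0.0923) and GADD45GIP1 at -0.20 (adjusted p = 0.0663), and both passed with the replicate block (adjusted p = 0.0235 and 0.00625), which called 3 of the 5 lower. Both also passed without CR31B replicate 2 (adjusted p = 0.0172 and 0.0165). They passed with upper quartile scaling (0.0101 and 0.0062), total counts (0.0149 and 0.00808) and a filter of at least 1 CPM in every library (0.041 and 0.0327). Under each of these scalings and this filter 3 of the 5 were lower. GADD45GIP1 also passed with no filter (0.00532), with DESeq2 (0.0363) and with offsets and replicate block (0.0332). PTCD3 was at -0.0404 and AURKAIP1 at 0.0864. With the offsets these 2 passed in opposite directions, PTCD3 at -0.23 (adjusted p = 0.0165) and AURKAIP1 at 0.16 (adjusted p = 0.0491), and AURKAIP1 also passed without CR31B replicate 3 (adjusted p = 0.0308). With all 8 libraries, 0 genes of this list, of the 3 other mitochondrial lists and of the cytosolic ribosomal proteins passed edgeR's test, and 0 were under 0.05 before adjustment.

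Genes for assembly of the mitochondrial ribosome and modification of its RNA moved in both directions, with 8 of 25 lower and 3 higher and a median of -0.12. In all 44% were called, near the 41.3% over all genes. The 8 lower came down to 3 without DMSO replicate 4, 4 without DMSO replicate 2 and 5 without CR31B replicate 3, where the median was -0.0586. MRM1, which methylates the large ribosomal RNA, rose by 1.004 on the log2 scale (adjusted p = 7.81e-05), and FASTKD2, an RNA-binding protein of large subunit assembly, by 0.35 (adjusted p = 7.60e-04). NGRN, needed for the stability of the large ribosomal RNA, was at -0.43 (adjusted p = 5.39e-04), and MTERF4, which brings an rRNA methyltransferase to the large subunit, at -0.30 (adjusted p = 0.00678).

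Of 16 mitochondrial translation factors and related proteins, 4 fell and 3 rose, with a median of -0.0011. In all 43.8% were called, near the 41.3% over all genes, and the 4 lower became 2 without any 1 of CR31B replicates 3 and 4 and DMSO replicates 2 and 4. MTIF2, the factor that brings the initiator tRNA, rose by 0.47 on the log2 scale (adjusted p = 4.16e-04), and GFM1, an elongation factor, by 0.26 (adjusted p = 0.0167). SLIRP, which stabilises mitochondrial mRNAs, was at -0.37 (adjusted p = 0.00172), and MTRF1L, a release factor, at -0.23 (adjusted p = 0.0304). The GFM1 call was lost with upper quartile scaling (adjusted p = 0.0572), with offsets (0.125) and without CR31B replicate 4, DMSO replicate 2 or DMSO replicate 3 (0.0528 to 0.0707). The MTRF1L call was lost without CR31B replicate 3, CR31B replicate 4, DMSO replicate 2 or DMSO replicate 4 (0.0738 to 0.0989). With upper quartile scaling 6 translation factors were lower and 1 higher.

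For transcription and replication of the mitochondrial genome the direction was the other one, with 5 of 12 genes higher (41.7%, against 23.8% over all genes) and 0 lower and a median of 0.14. TWNK, the replicative helicase, rose by 1.44 on the log2 scale (adjusted p = 5.07e-07), and PRIMPOL, a primase and polymerase, by 0.78 (adjusted p = 1.78e-04). In pair 1 TWNK differed by -1.45 and PRIMPOL by -0.78.

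Cytosolic ribosomal protein genes, the most similar group, fell in 49 of 79 cases (62.0%, against 17.6% over all genes) and rose in 0, with a median of -0.19 against -0.17 for the mitochondrial ones. RPS20 had -0.35 (adjusted p = 0.00120) and RPL12 -0.33 (adjusted p = 4.52e-04). The 49 became 26 without DMSO replicate 2 and 25 without DMSO replicate 4. With the offsets 16 cytosolic genes were lower (20.3%), near the 19.6% of all genes, with a median of -0.0899 against -0.0271 over all genes. With offsets and the replicate block 35 of the 79 were lower, against 25.8% of all genes. Their median there was -0.0919, against -0.0282 over all genes. No test of the difference between the 2 groups was made.

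**Figure D5:**
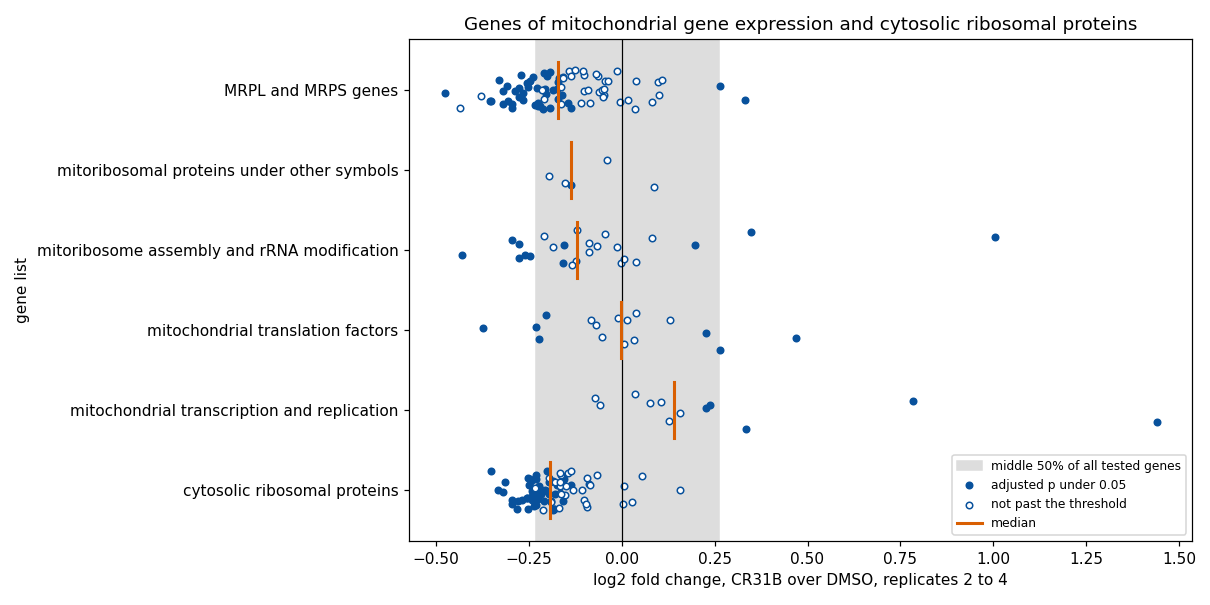
Log2 fold change, CR31B over DMSO, in replicates 2 to 4 for each gene of 6 lists (points, filled where the adjusted p was under 0.05; orange line, median; spread along the vertical axis within a list is only for legibility), with the middle 50% of all tested genes (-0.23 to 0.26) in grey. The medians of both ribosomal groups, -0.17 and -0.19, lie below 0, and that of transcription and replication, 0.14, above it.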

How the data were processed

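RNA sequencing counts of 8 IMR32 libraries were used. The authors deposited 1 table of raw counts per gene, not normalised. The submitters' processing notes name FastQC 0.11.7, STAR 2.7.2b, edgeR 3.36.0, limma 3.50.3 and GRCh38. The counting tool and annotation are not given in the sources used here. On the strand setting there is only the word reverse in the name of the deposited counts, without further explanation. Per the labels' protocols, 250 ng of RNA and 15 PCR cycles were used, so intervals from depth cover counting error only. The members and all gene lists were chosen with earlier results of these data known, and the lists were written from general knowledge.

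Here, genes were annotated by identifier with GENCODE 29, which held 58515 of the 58787 identifiers. The test was edgeR's (version 4.0.16, R 4.3.3; quasi-likelihood, two-sided, filterByExpr, TMM, Benjamini-Hochberg adjustment over all tested genes, threshold 0.05), once in all 8 libraries with layout as a covariate and once in replicates 2 to 4; limma 3.58.1 and DESeq2 1.42.0 were alternatives. Differences within a pair are of log2 CPM (prior count 1). The fits were tested on simulated data. In replicates 2 to 4, 36 of 100 changes of log2 size 0.3 and 96 of 100 of size 1 were recovered, with 14 false calls among 146. With 8 libraries 55 and 100 of 100 were recovered, with 15 false calls among 170. Only 100 genes of each size were changed, whereas 41.3% of all genes were called in replicates 2 to 4. For the 8-library fit, replicate 1 was simulated in the same direction as the others, unlike in these data. The rates therefore do not carry over to the fits given here. Even in that setting small changes were missed and some calls were false, and the same can happen here.

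Same-numbered libraries deviated together in replicates 2 to 4 (correlations of 0.208, 0.388 and 0.157), so the numbers were taken to pair them. Over all 8 libraries the correlations were -0.527, -0.078, 0.159 and -0.108, and there the numbers were not taken to pair them. The main fit of replicates 2 to 4 nevertheless has no term for the pair. With the replicate number as a block, 50 members (3 higher, 47 lower) and 51.1% of all genes were called. No 2 libraries agreed within sampling noise (lowest mean chi-square per gene 1.25). Offsets for GC content and transcript length came from loess fits (span 0.3). Full per-library values are given for the genes with the largest called changes; the other named genes were taken by level, role, list or smallest change. One gene of the marker list is not reported here. MRPL23 and MRPL55 were named after their values were seen. Promoter sequences are RefSeq's for GRCh38.p14.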

Additional observations from a re-analysis of the deposited data

Results flagged for a closer look

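Of 102 group levels examined for 1 library far from the other 3, 17 were flagged. In 14 of the 17 the distant library was a replicate 1 library. A count of about 5.1 would be due to chance only for independent levels not chosen by outcome. These levels come from the same libraries, and several named genes were chosen for their called changes without replicate 1. That choice favours agreement among the other 3 libraries, so the flagged counts cannot be judged against chance. The measure is the gap to the nearest library as a share of the group's whole range, set against Dixon's critical value for groups of 4. DMSO replicate 1 stood apart for MRPL47 (0.88), MRPL51 (0.961), MRPL27 (0.833), MRPL43 (0.931), MRPL58 (0.878), MRPL41 (0.903), TWNK (0.946) and MRM1 (0.885). It also stood apart for the 78 genes' percent of all counts (0.922) and for the mean log2 CPM of the 76 tested in all 8 libraries (0.906). CR31B replicate 1 stood apart for MRPL37 (0.868), MRPS18B (0.988), RPL12 (0.877) and TWNK (0.856). The remaining 3 were MRPS28 in DMSO replicate 4 (0.858) and MRPS12 (0.871) and MRPL19 (0.843) in CR31B replicate 3.

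Among the named MRPL and MRPS genes, edgeR's test of the treatment by layout interaction passed for 17, and over all genes for 42.5%. Named genes of the other lists were not examined for this. In the 17, the difference between treatments in replicate 1 differed from that in replicates 2 to 4. The log2 difference between the 2 was positive, meaning higher in replicate 1, for MRPL52 (0.843), MRPL51 (0.715), MRPL21 (0.643), MRPS14 (0.63), MRPL43 (0.623), MRPL37 (0.579), MRPL11 (0.558), MRPS18B (0.549), MRPL47 (0.525), MRPL27 (0.499), MRPL54 (0.498), MRPS36 (0.465) and MRPS18A (0.421). It was negative for MRPL30 (-0.661), MRPL16 (-0.533), MRPS30 (-0.318) and MRPL3 (-0.3). The cause was not tested.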

How the results depend on the processing

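With all 8 libraries, the count of called mitochondrial ribosomal protein genes stayed at 0 under each scaling, filter, tool, offset and replicate block setting tried. Leaving out 1 library gave 0 to 41 called, 0 to 2 higher and 0 to 39 lower. Without CR31B replicate 1 it was 41 (2 higher, 39 lower), and 41.6% of all genes. Without DMSO replicate 1 it was 40 (2 higher, 38 lower), and 41.1% of all genes. In these 2 fits the layout covariate takes up the replicate 1 library that remains, which then has no weight on the treatment. They therefore largely repeat the fit of replicates 2 to 4 and are no separate check. In replicates 2 to 4, leaving out 1 library gave 27 to 42 called and 25 to 40 lower. The replicate block gave 50 called (3 higher, 47 lower), and 51.1% of all genes; all 41 remained called, and the calls it changed among named genes are given with them. The median of the members was -0.268 with upper quartile scaling and -0.25 with total counts, where that of all genes also moved, to -0.102 and -0.0849; relative to all genes it stayed at -0.165. The share of higher calls among all called genes was 57.5% with TMM, 40.0% with upper quartile, 43.1% with total counts and 50.4% with offsets. Higher members numbered 4 with GC and length offsets, 6 with these and the replicate block, and 1 among genes with under 5% same-strand overlap, a subset chosen after seeing the data, which leaves out MRPL30. MRPL18 turned to 0.112 (adjusted p = 0.0396) with offsets and replicate block. The interaction called 56 members with upper quartile scaling (47.0% of all genes) and 54 with total counts (45.7%). Apart from the changes above, the cause was not tested. Of the values for named genes under these settings in replicates 2 to 4, 658 kept their direction and side of the threshold, 32 gained a call, 26 lost it and 1 turned. Depth limits the 7 genes under 10 CPM.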
